A study of Mus musculus with 21 samples.

Results

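Transcript levels of 10 genes of the heat shock chaperone system were followed from the gametes to the blastocyst of the mouse. The genes were chosen by name: Hspa1a, Hspa1b and Hspa1l (the stress-inducible HSP70 genes and their relative in spermatids), Hspa2 (the HSP70 of the testis), Hspa8 (the constitutive cytosolic HSP70, also called HSC70), Hspa5 (BiP, the HSP70 of the endoplasmic reticulum), Hspa9 (mortalin, the HSP70 of mitochondria), Hsp90aa1 and Hsp90ab1 (the inducible and the constitutive cytosolic HSP90) and Hsf1 (the main transcription factor of the heat shock response). Transcripts of the merged long-read annotation were assigned to genes by exon overlap on the same strand with GENCODE vM21 on mm10, and the level of a gene is the summed TPM (a length-corrected share of all transcripts in a library) of its transcripts. A merged transcript was found for 9 of the 10 genes, and these 9 held 18 of the 22612 merged transcripts, where 14885 gene features, 10917 of them GENCODE genes, had at least 1. Hspa1l had no merged transcript and no long-read transcript in any of the 7 stage pools, so no level can be given for it.

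HSP70 proteins bind unfolded stretches of other proteins in a cycle of ATP binding and hydrolysis that J-domain (HSP40) partners start and nucleotide exchange factors end. HSP90 proteins act at later folding steps of kinases and receptors with a set of co-chaperones, and HSF1 binds repeats of the letters GAA in the promoters of heat shock genes. In mouse embryos the inducible HSP70 genes are known for their early transcription once the embryonic genome becomes active, and Hspa2 is known for its role in spermatogenesis.

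The samples were pooled sperm, MII oocytes and embryos at the 1-cell, 2-cell, 4-cell, 8-cell and blastocyst stage, with 2 short-read libraries (14 in all) and 1 long-read pool for each of the 7 stages, all from total RNA amplified as cDNA by Smart-seq2. Sperm came from the epididymis of DBA/2J males and oocytes from superovulated C57/BL6J females, which the protocol gives as 3 to 5 weeks old, and the embryos carried the genomes of both strains (♂DBA/2J x ♀C57/BL6J). Oocytes were lysed at 20 h after hCG, and embryos isolated at that time were grown in KSOM medium until 24 to 26 h (1-cell), 46 to 48 h (2-cell), 54 to 58 h (4-cell), 68 to 70 h (8-cell) or 94 to 96 h (blastocyst). The protocol text names the males DBA/2N where the strain label has DBA/2J. Gametes and embryos therefore differed in genotype as well as stage, all stages after 20 h had been in culture, and no stressed or heat-shocked group was among the samples. The methods describe 2 batches of pooled cells at each stage, and since no label ties a batch to animals, p-values measure only the spread between these libraries. In pooled cells a lower TPM of a gene can mean fewer cells with it, less of it per cell or, since TPM is a share, more of other transcripts. These cannot be told apart.

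No read depth can be recovered from TPM and none is given here. The study lists read totals for each short-read library, which differ between replicates of a stage and were not used here. Lists of marker genes followed the labels: 7 sperm genes summed to 17340 to 21190 TPM in sperm and to at most 17.1 TPM in any other library. Single sperm genes differed between the sperm libraries in both directions. Prm2 (9070 and 868.9 TPM in replicates 1 and 2), Tnp1, Akap4 and Smcp were higher in replicate 1. Odf1 (485.3 and 7373 TPM), Prm1 and Tnp2 were higher in replicate 2. A list of 5 blastocyst genes summed to 10140 to 37300 TPM at the blastocyst stage and to at most 732 TPM elsewhere, in sperm replicate 2. The 2-cell libraries stood apart from each other: 5 genes known from 2-cell embryos summed to 19.9 TPM in replicate 1, below the 33.2 to 38.2 TPM of the 4-cell libraries, and to 359 TPM in replicate 2, and 7 oocyte genes to 82.6 and 779 TPM. The median SD of a gene between replicates on the log2(TPM + 1) scale was 1.03 at the 2-cell stage and from 0.204 (4-cell) to 0.709 (sperm) at the others. Both sperm libraries held markers of epididymis epithelium and leukocytes, 12150 TPM in replicate 1 and 2196 TPM in replicate 2 over the 5 of 6 listed genes with a merged transcript, none of them at 0, and their part in the sperm values was not tested. None of the 7 listed cumulus and granulosa cell genes had a merged transcript.

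**Figure D1:**
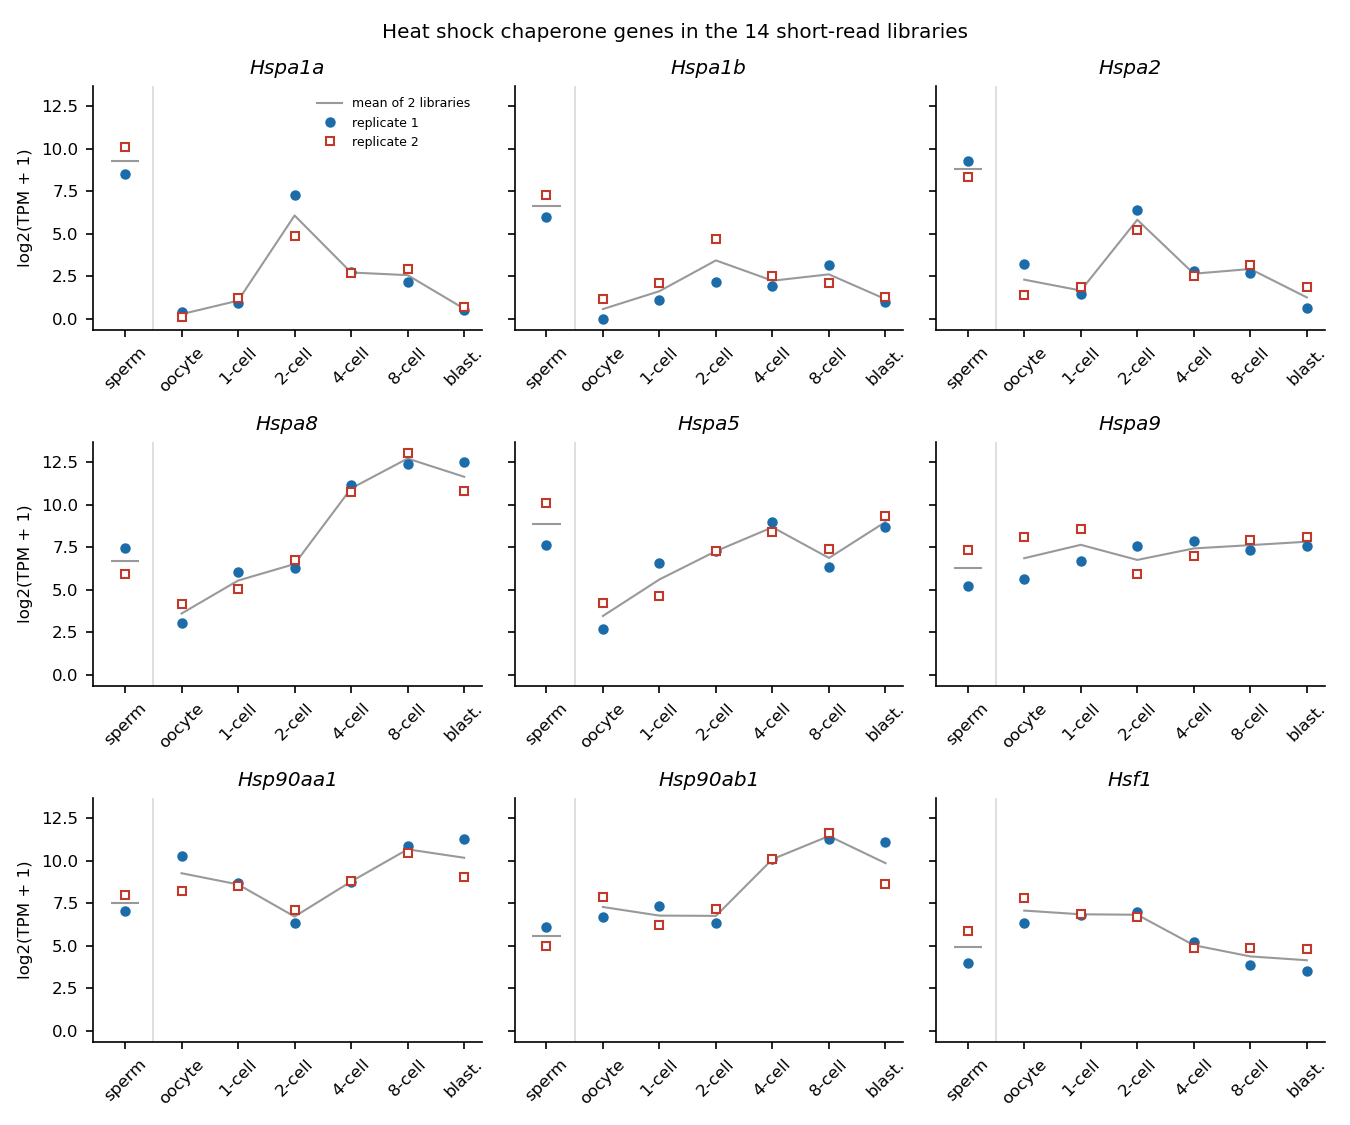
Level of the 9 heat shock chaperone genes with a merged transcript in the 14 short-read libraries, as log2(TPM + 1) on the y axis, by stage on the x axis; filled circles are replicate 1, open squares replicate 2, and the line is the mean of both. Hspa1a and Hspa2 stand highest in sperm and next at the 2-cell stage, and Hspa8 and Hsp90ab1 climb from the 2-cell to the 8-cell stage. Hsf1 has its highest mean in oocytes, where its libraries overlap those at the 1-cell and 2-cell stages.

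Changes between stages were tested on the log2(TPM + 1) scale with limma, in a fit of the 12 oocyte and embryo libraries with Benjamini-Hochberg adjustment over all 13465 genes tested and a threshold of 0.05. From oocyte to 1-cell, 0 of the 9 members were called (Hspa5 and Hspa8 had an unadjusted p under 0.05), where 2.90% of all genes were. From 1-cell to 2-cell, 2 of the 9 rose, Hspa1a and Hspa2, beside 29.9% of all genes called, 25.3% as rises and 4.57% as falls. This was the step with the broadest change, and the members' share lay near that of all genes. From 2-cell to 4-cell, Hspa8 rose and Hspa1a and Hspa2 fell, 3 of 9 beside 2.64% of all genes (1.06% rises, 1.58% falls).

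Of the later steps, 4-cell to 8-cell had 0 of 9 members called (Hspa5 at an unadjusted p under 0.05) beside 3.75% of all genes, and 8-cell to blastocyst had 0 of 9 (Hspa1a and Hspa5 at an unadjusted p under 0.05) beside 1.99%. Over the whole course from oocyte to blastocyst, Hspa8, Hspa5 and Hsp90ab1 rose and Hsf1 fell, 4 of 9 beside 46.4% of all genes (29.8% rises, 16.6% falls). Between oocyte and sperm, in a fit of all 14 libraries over 14397 genes, Hspa1a, Hspa2, Hspa1b, Hspa5 and Hspa8 were higher in sperm and Hsf1 was lower, 6 of 9 beside 51.0% of all genes (35.5% higher, 15.5% lower). The last 2 comparisons share the oocyte libraries.

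The members' median change was 0.79 into the 1-cell stage against 0.20 over all genes, 0.97 against 0.84 into the 2-cell stage, 0.68 against 0.00 into the 4-cell stage, 0.28 against -0.39 into the 8-cell stage and -1.07 against -0.24 into the blastocyst. It was 0.91 against 0.75 from oocyte to blastocyst, and 3.07 against 0.91 from oocyte to sperm. Quantile normalization, which forces all libraries to the same distribution, moved the median of all genes from 0.84 to -0.11 for the step into the 2-cell stage, from 0.75 to 0.17 between oocyte and blastocyst and from 0.91 to 0.04 between oocyte and sperm. With it, the share of rises among all calls went from 84.7 to 45.6%, from 64.2 to 49.4% and from 69.6 to 49.9% in these comparisons, from 40.2 to 54.0% for the 2-cell to 4-cell step, from 22.2 to 48.0% for the step after it and from 46.3 to 56.7% for the step to the blastocyst. Every member called at gene level was also called in the same direction after quantile normalization, which added Hsp90ab1 as a rise from 2-cell to 4-cell.

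**Figure D2:**
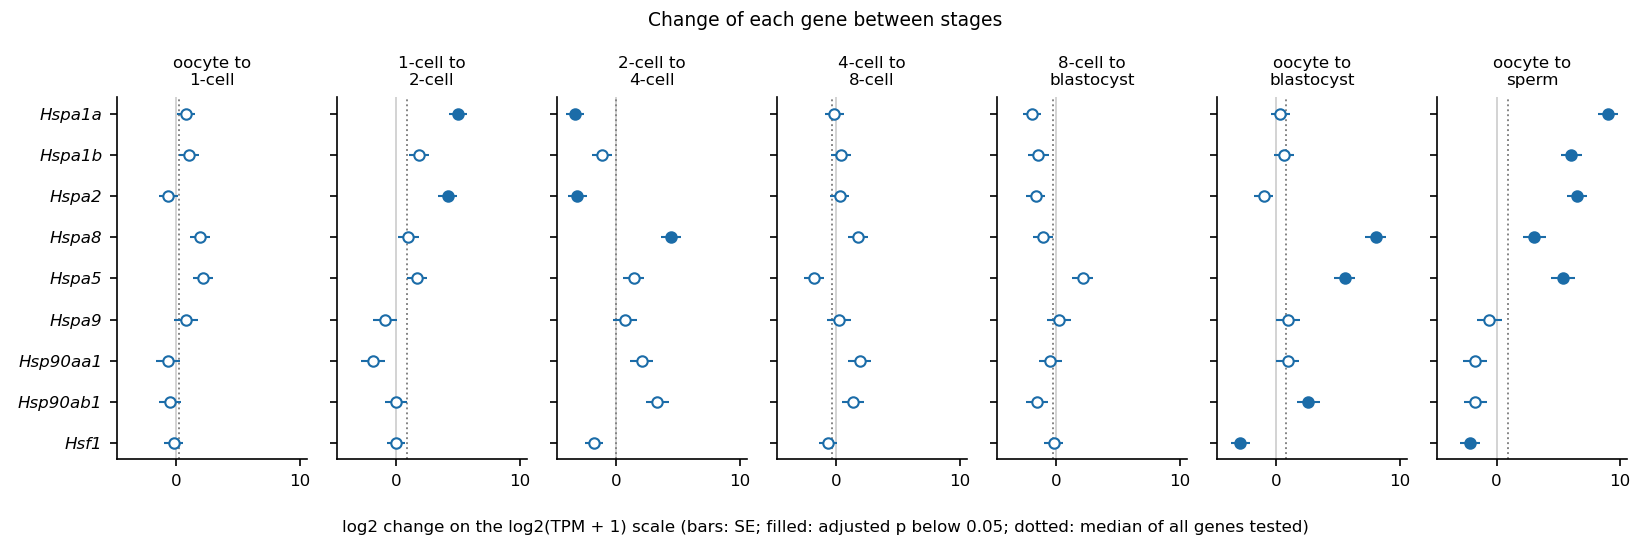
Change of each gene between 2 stages on the log2(TPM + 1) scale (x axis, later minus earlier stage, or sperm minus oocyte) with its SE as a bar; filled points have a limma adjusted p below 0.05, and the dotted line is the median of all genes tested. Hspa1a and Hspa2 change sign between the 1-cell to 2-cell and the 2-cell to 4-cell panels, and Hspa8 has the largest rise of the 9 from oocyte to blastocyst, 8.03.

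Hspa1a (chr17:34969190-34972156, minus strand), which encodes the inducible cytosolic HSP70, had a brief peak at the 2-cell stage. It stood at 0.340 and 0.102 TPM in oocyte replicates 1 and 2, at 0.910 and 1.32 TPM at 1-cell, at 152 and 28.7 TPM at 2-cell, at 5.84 and 5.42 TPM at 4-cell, at 3.58 and 6.72 TPM at 8-cell and at 0.442 and 0.595 TPM at blastocyst. Both 2-cell libraries were thus above every other embryo library, while they differed from each other more than the libraries of any other embryo stage did. From 1-cell to 2-cell Hspa1a rose by 5.00 on the log2(TPM + 1) scale (SE 0.75, limma adjusted p = 0.000606), which understates the change of values this low. The rise was 3.82 without 2-cell replicate 1 and 6.18 without 2-cell replicate 2, and it was called in all 22 alternatives tried. From 2-cell to 4-cell Hspa1a fell by 3.35 (SE 0.75, limma adjusted p = 0.0372). This fall was called in 10 of 22 alternatives (adjusted p from 0.00526 to 0.306), and it was lost without either 1-cell, 4-cell or 8-cell library.

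Hspa1b (chr17:34956436-34959238, minus strand), the neighbouring copy of Hspa1a, was measured only through a merged transcript of 394 bases at its 3′ end (chr17:34956432-34956825), which came from the 8-cell long-read pool. It had 0 and 1.23 TPM in oocytes, 1.18 and 3.4 TPM at 1-cell, 3.56 and 24.8 TPM at 2-cell, 2.86 and 4.82 TPM at 4-cell, 7.83 and 3.28 TPM at 8-cell and 1.01 and 1.49 TPM at blastocyst. Its 2-cell replicates stood in the opposite order to those of Hspa1a, and no step between embryo stages was called. Of all 31-base words in the longest GENCODE coding transcript of Hspa1a, 63.8% also occurred in Hspa1b, counted over its full annotated transcripts. The merged transcripts held only 394 bases of Hspa1b, without its start codon. Reads from the rest of Hspa1b thus had no transcript of that gene to be assigned to, while Hspa1a offered the shared sequence. Their part in the Hspa1a values was not tested. Summed as 1 feature, a choice made after seeing the data, the pair stood at 2.09 and 4.72 TPM at 1-cell, 155 and 53.5 TPM at 2-cell and 8.70 and 10.2 TPM at 4-cell. The sum rose by 4.46 from 1-cell to 2-cell (SE 0.72, limma adjusted p = 0.000793) and fell by 3.14 to 4-cell (SE 0.72, adjusted p = 0.0392).

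The promoters of both genes are shown because the copies are also near-identical upstream. RefSeq sequence (GRCm38.p6) was found for 5 of the 10 members, and the 250 bases before the start of Hspa1a (chr17:34972157-34972406) and of Hspa1b (chr17:34959239-34959488), both on the minus strand, are given 5′ to 3′ with a match to GAANNTTC, a pair of inverted GAA blocks of the kind that HSF1 binds, in capitals.
Hspa1a: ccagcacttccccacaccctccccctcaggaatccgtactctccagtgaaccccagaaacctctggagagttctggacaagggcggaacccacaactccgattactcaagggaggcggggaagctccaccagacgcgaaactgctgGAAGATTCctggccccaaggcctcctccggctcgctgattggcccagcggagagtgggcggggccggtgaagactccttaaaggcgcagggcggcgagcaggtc
Hspa1b: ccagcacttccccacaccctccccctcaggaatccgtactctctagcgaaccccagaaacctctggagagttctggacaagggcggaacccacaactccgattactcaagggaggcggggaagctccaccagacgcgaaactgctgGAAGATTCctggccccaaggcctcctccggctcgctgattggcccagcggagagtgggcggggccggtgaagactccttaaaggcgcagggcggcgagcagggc
The windows differed at 3 positions (207, 204 and 2 bases before the start) and were 98.8% identical. The match began 104 bases before the start in both, and 6.69% of the 32851 promoter windows of the same length held a match on either strand. Neither window held TTCNNGAA (7.17% of all windows), the longer pattern of GAA, TTC and GAA blocks in which it overlaps GAANNTTC (0.466%) or TATAAA (12.4%), and each held 1 CCAAT (33.9%). None of the heat shock patterns was in the windows of Hspa2, Hspa5 or Hspa1l. The window of Hspa2 (chr12:76404120-76404369) lay mostly inside its GENCODE gene, which starts at chr12:76404176, and inside its merged transcript. Sequence further upstream of Hspa2 was not searched.

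Hspa1a had 2 merged transcripts, an unspliced one of 2798 bases and one of 2252 bases in which 546 bases of the coding region are left out (chr17:34971265-34971810). The left-out length is a multiple of 3, and the gap lies after the start codon, at base 347 of the annotated transcript where the codon is at base 232. Both ends of the gap are shown, in the direction of the transcript, because they share a 3-base repeat, in capitals, where a spliced intron would usually begin with GT and end with AG.
First end: caaccgcacgacccCCAgctacgtggcc
Second end: cttcgaggtgaaggCCAcggcgggcgac
As placed in the annotation the gap begins with CC and ends with GG, and none of the 4 placements that the repeat allows gave GT and AG. Long reads of this form were found in the sperm pool only. Short reads assigned to it 31.6 and 185 TPM in sperm, 11.9 and 16.3 TPM at 2-cell and at most 4.24 TPM in any other library. In the test over 20250 merged transcripts, it rose by 3.90 from 1-cell to 2-cell (SE 0.49, limma adjusted p = 0.000577) and fell by 2.52 to 4-cell (SE 0.49, adjusted p = 0.0272), a call lost without either 1-cell, 4-cell or 8-cell library. The unspliced form rose by 4.37 from 1-cell to 2-cell (SE 0.88, adjusted p = 0.00388, and 0.0568 after quantile normalization). The forms shared most of their sequence, and only reads that cross the gap or lie in it can tell them apart.

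Hspa2 (chr12:76404176-76406938, plus strand), the testis HSP70, had the same peak. It stood at 8.25 and 1.65 TPM in oocytes, 1.76 and 2.66 TPM at 1-cell, 84.1 and 36.7 TPM at 2-cell, 5.92 and 4.75 TPM at 4-cell, 5.46 and 8.03 TPM at 8-cell and 0.583 and 2.64 TPM at blastocyst. The 2-cell libraries were again above all other embryo libraries, and replicate 1 was again the higher of the pair. From 1-cell to 2-cell Hspa2 rose by 4.15 (SE 0.78, limma adjusted p = 0.00186), in all 22 alternatives. It fell by 3.17 to 4-cell (SE 0.78, limma adjusted p = 0.0495), a call kept in 9 of 22 alternatives and lost without 2-cell replicate 1 (adjusted p = 0.0571) or without either 1-cell, 4-cell or 8-cell library. Of its 31-base words, 0.120% occurred in another gene. Its single merged transcript had 3 exons where the longest annotated coding transcript has 1, and 1 of its 2 introns was not annotated.

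Hspa8 (chr9:40800984-40810087, plus strand), the housekeeping HSP70 that also uncoats clathrin vesicles, had the largest rise of the 9 genes between oocyte and blastocyst. It stood at 7.25 and 17.0 TPM in oocytes, 65.5 and 31.7 TPM at 1-cell, 76.8 and 106 TPM at 2-cell, 2274 and 1724 TPM at 4-cell, 5355 and 8346 TPM at 8-cell and 5718 and 1770 TPM at blastocyst. All 4-cell, 8-cell and blastocyst libraries were above all earlier ones, and the replicates of the 8-cell and blastocyst stages overlapped each other. The rise from oocyte to blastocyst was 8.03 (SE 0.83, limma adjusted p = 1.97e-05) and was called in all 22 alternatives. Within it, 1-cell to 2-cell was not called (0.97, SE 0.83, adjusted p = 0.404) and 2-cell to 4-cell was (4.44, SE 0.83, adjusted p = 0.0238). That step was called in 16 of 22 alternatives, with changes from 4.21 to 5.17, and was lost without either 4-cell or either 8-cell library (adjusted p up to 0.249), in the fit of the 4 libraries alone (0.213) and with library weights (0.168).

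Hspa8 had 5 merged transcripts, and 2 of them held nearly all of its TPM: one of 9 exons with the annotated intron chain (2104 bases) and one of 7 exons (1685 bases) that passes from exon 1 to exon 4. The left-out exons 2 and 3 hold 416 bases, which is not a multiple of 3, and exon 2 holds the annotated start codon (chr9:40801923-40801925). The skipping junction (chr9:40801349-40802738) is in no annotated transcript of the gene. The last 15 bases of exon 1 are given in lower case with the first 15 bases of the next exon in capitals.
Annotated junction, exon 1 to 2: gggcctacacacaagCAACCATGTCTAAGG
Skipping junction, exon 1 to 4: gggcctacacacaagACCGTTACCAACGCT
The skipping form was found by long reads in the 2-cell pool only. Short reads nevertheless assigned to it 807 and 633 TPM at 4-cell, 2420 and 3188 TPM at 8-cell and 2525 and 708 TPM at blastocyst, against 1.11 and 0 TPM in oocytes and 0 and 1.42 TPM at 1-cell.

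As a share of all Hspa8 TPM, the 7-exon form took 0 to 15.3% in the oocyte and 1-cell libraries and 23.0 and 39.0% in 2-cell replicates 1 and 2. Over the 6 libraries from 4-cell to blastocyst the share was 40.0% ± 3.96 (SD, n = 6), with the lowest value, 35.5%, in 4-cell replicate 1 and the highest, 45.2%, in 8-cell replicate 1. At transcript level it rose by 4.17 from 1-cell to 2-cell (SE 0.85, limma adjusted p = 0.00408), and from 2-cell to 4-cell both forms rose, by 4.67 (SE 0.85, adjusted p = 0.024) and, for the 9-exon form, by 4.33 (SE 0.85, adjusted p = 0.0271). These last calls were lost without either 4-cell or 8-cell library, and that of the 9-exon form also without either 1-cell library. Of the 1655 words of 31 bases in the 7-exon form, only 27 were not also in the 9-exon form, so only reads over the skipping junction mark the 7-exon form.

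Reads of Hspa8 also cannot be fully separated from those of its processed pseudogenes. Of its 31-base words, 77.2% occurred in at least 1 of 13 other genes, and 84.8% of those of the 7-exon form occurred in the processed pseudogene Gm15459 (chr5:5781615-5783555, minus strand), which had long reads in 5 stages. Gm15459 was assigned 0.692 and 0.215 TPM in oocytes, 24.0 and 22.8 TPM at 2-cell, 587 and 449 TPM at 4-cell, 1413 and 2372 TPM at 8-cell and 1802 and 606 TPM at blastocyst, so its values moved with those of Hspa8. The part of shared reads in this was not tested. Hspa8 and Gm15459 summed, a choice made after seeing the data, gave 101 and 129 TPM at 2-cell and 2861 and 2174 TPM at 4-cell, and the change between these stages was the same, 4.44 (SE 0.83, limma adjusted p = 0.0242).

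**Figure D3:**
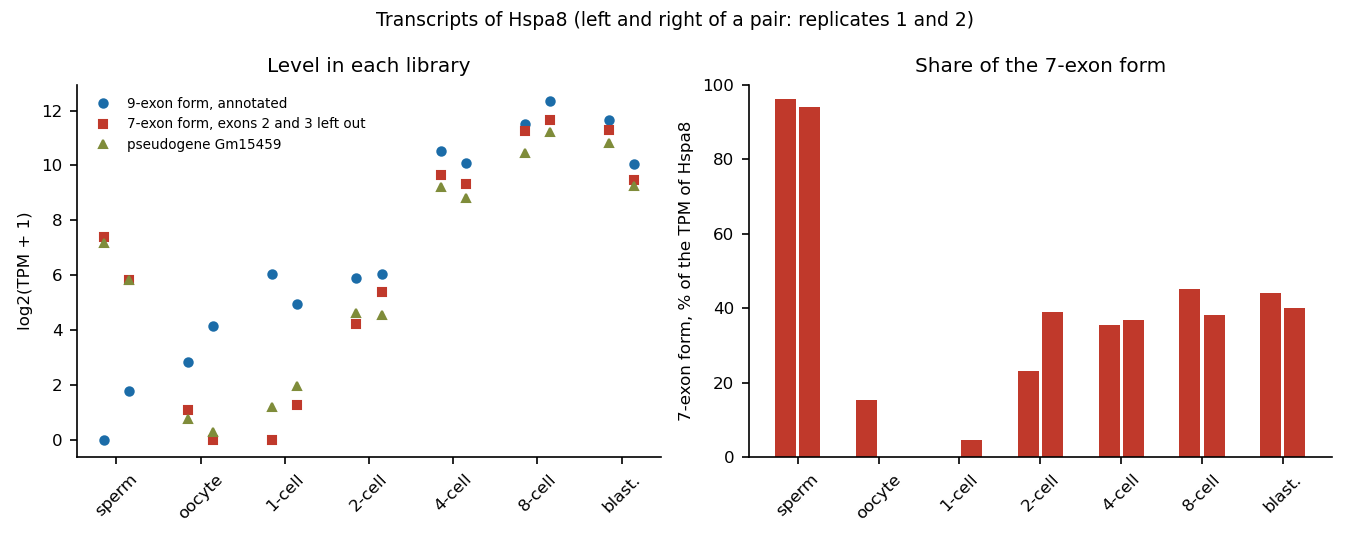
Left, log2(TPM + 1) of the 9-exon form of Hspa8, of its 7-exon form and of the pseudogene Gm15459 in each library (y axis) by stage (x axis), with replicate 1 on the left and replicate 2 on the right of each pair; right, the 7-exon form as a percent of the TPM of Hspa8. From 4-cell to blastocyst the share lies between 35.5 and 45.2%, and in sperm it is 96.0 and 94.0%.

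In sperm, 96.0 and 94.0% of the Hspa8 TPM went to the 7-exon form (167 and 55.7 TPM), although the sperm pool held no long-read transcript of Hspa8. The 9-exon form was at 0 and 2.42 TPM there, and Gm15459, which did have long reads in sperm, was at 144 and 55.9 TPM. The level of the 7-exon form and that of Gm15459 were thus close in both sperm libraries. The gene-level rise of Hspa8 in sperm over oocyte was 3.07 (SE 0.91, limma adjusted p = 0.0107), lost without sperm replicate 1 (2.31, adjusted p = 0.0842) or oocyte replicate 1, and for the sum of Hspa8 and Gm15459 it was 3.91 (SE 0.91, adjusted p = 0.00239).

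Of the other HSP70 genes in sperm, Hspa1a stood at 358 and 1105 TPM in sperm replicates 1 and 2, Hspa1b at 62.4 and 156 TPM, Hspa2 at 617 and 326 TPM and Hspa5 at 196 and 1113 TPM. All of these values lay above both oocyte libraries of the gene. The differences between sperm and oocyte were 9.02 for Hspa1a (SE 0.84, limma adjusted p = 1.77e-06), 6.06 for Hspa1b (SE 0.88, adjusted p = 6.97e-05), 6.51 for Hspa2 (SE 0.80, adjusted p = 1.84e-05) and 5.41 for Hspa5 (SE 0.97, adjusted p = 0.000365). Each was called in all 23 alternatives, those that leave out a sperm library included. Hspa1a, Hspa1b and Hspa5 were higher in sperm replicate 2, and Hspa2 and Hspa8 were higher in replicate 1. The listed epididymis and leukocyte markers were lower in replicate 2. Of the blastocyst list, Krt8 (48.43 and 287.5 TPM in replicates 1 and 2), Krt18 (100.5 and 306.2 TPM) and Gata3 (20.25 and 134.4 TPM) were higher there. The part of other cells in these values was not tested.

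Hspa5 (chr2:34771970-34777547, plus strand), the chaperone that receives new proteins in the endoplasmic reticulum and holds back the sensors of the unfolded protein response, rose over the whole course. It stood at 5.44 and 17.8 TPM in oocytes, 93.3 and 24.2 TPM at 1-cell, 153 and 154 TPM at 2-cell, 501 and 331 TPM at 4-cell, 81.5 and 165 TPM at 8-cell and 405 and 633 TPM at blastocyst. The 8-cell libraries were below both the 4-cell and the blastocyst libraries, while the 8-cell and 2-cell ranges overlapped. The rise over the whole course was 5.52 (SE 0.83, limma adjusted p = 0.000207), in all 22 alternatives. No single step was called: the change was 2.15 from oocyte to 1-cell (adjusted p = 0.339), 1.66 to 2-cell (0.149), 1.40 to 4-cell (0.327), -1.80 to 8-cell (0.313) and 2.12 to blastocyst (0.268).

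Hspa5 was the member with the least shared sequence, 0.0275% of its 31-base words, and its merged transcript had the 9 exons of the annotated one. In the RefSeq window of 250 bases before its start, Hspa5 held the ER stress element (CCAAT and CCACG with 9 bases between them, the site of the ATF6 response), which 0.113% of the 32851 windows held. The match began 65 bases before the RefSeq start, which is inside the GENCODE gene and inside the merged transcript, whose first base is chr2:34772018.

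Hspa9 (chr18:34937414-34954357, minus strand), which pulls proteins into mitochondria, passed the test in none of the comparisons. Its 14 values lay between 36.8 TPM (sperm replicate 1) and 385 TPM (1-cell replicate 2). The order of its stage means, from 244 TPM at 1-cell to 97.4 TPM in sperm, had overlapping libraries at each neighbouring pair. The replicates of the oocyte stage alone were 47.7 and 274 TPM.

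Hsp90ab1 (chr17:45567775-45573271, minus strand), the constitutive cytosolic HSP90, was low up to the 2-cell stage and higher in all later libraries. It stood at 104 and 228 TPM in oocytes, 161 and 72.8 TPM at 1-cell, 80.2 and 143 TPM at 2-cell, 1082 and 1090 TPM at 4-cell, 2495 and 3108 TPM at 8-cell and 2159 and 395 TPM at blastocyst. All libraries from 4-cell on were above all earlier ones, and the blastocyst replicates were far apart. From 2-cell to 4-cell the change of 3.33 did not pass (SE 0.91, limma adjusted p = 0.0648). The rise of 2.58 from oocyte to blastocyst did (SE 0.91, adjusted p = 0.0331), but it was lost without blastocyst replicate 1 (1.35, adjusted p = 0.288), without oocyte replicate 1 and without any 4-cell or 8-cell library.

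A merged transcript with the 11 annotated exons held 64.6 to 91.8% of the Hsp90ab1 TPM in the 8 libraries from 2-cell to blastocyst, but 35.4% in oocyte replicate 2 and 35.8% in sperm replicate 2. It rose by 3.15 from oocyte to blastocyst (SE 0.88, limma adjusted p = 0.0121), a call lost without blastocyst replicate 1 (1.94, adjusted p = 0.114). A shorter form of 7 exons and 1153 bases, with exons 2 to 7 of the annotated transcript and 1 exon outside it, took 64.6% of the TPM in oocyte replicate 2 and 0% in oocyte replicate 1, 64.2% in sperm replicate 2 and 13.4% in replicate 1, and 35.4% in 8-cell replicate 2 and 16.9% in replicate 1.

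Of oocytes and embryos, Hsp90aa1 (chr12:110690605-110702728, minus strand), the stress-inducible cytosolic HSP90, was lowest at the 2-cell stage, the embryo peak of Hspa1a and Hspa2. In sperm it was at 129 and 250 TPM, a range that overlapped the 2-cell libraries. It stood at 1252 and 300 TPM in oocytes, 408 and 369 TPM at 1-cell, 79.6 and 136 TPM at 2-cell, 434 and 440 TPM at 4-cell, 1851 and 1419 TPM at 8-cell and 2505 and 529 TPM at blastocyst. Both 2-cell libraries were below every library of the stages on either side, but the changes of -1.89 into the 2-cell stage (SE 0.94, limma adjusted p = 0.145) and 2.06 out of it (SE 0.94, adjusted p = 0.212) were not called. Of its 31-base words, 62.9% occurred in 17 other genes, of which the pseudogene Gm12346 had at most 30.5 TPM in any library and Gm5844 was listed at 0 in all. The level also depended on the transcripts offered to the reads. Over the long-read transcripts of each stage alone, Hsp90aa1 was assigned 5073 and 1683 TPM in oocytes, 325 and 693 TPM at 2-cell and 6597 and 1281 TPM at blastocyst, and each of these lies above the value over the merged transcripts.

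Hsf1 (chr15:76477422-76501913, plus strand), the transcription factor of the response, went the other way from Hspa8. It stood at 80.8 and 219 TPM in oocytes, 111 and 118 TPM at 1-cell, 124 and 101 TPM at 2-cell, 36.1 and 28.0 TPM at 4-cell, 13.9 and 28.0 TPM at 8-cell and 10.5 and 26.6 TPM at blastocyst. Every library up to the 2-cell stage was above every later one. Over the whole course Hsf1 fell by 2.92 (SE 0.75, limma adjusted p = 0.00623), in 21 of 22 alternatives and not without blastocyst replicate 1 (-2.28, adjusted p = 0.0623). From 2-cell to 4-cell the change of -1.79 did not pass (adjusted p = 0.177). In sperm it was at 14.7 and 57.5 TPM, 2.15 below oocyte (SE 0.83, adjusted p = 0.0425), a call kept in 13 of 23 alternatives and lost without sperm replicate 1 (-1.20, adjusted p = 0.315), oocyte replicate 2 or any 1-cell, 4-cell or 8-cell library.

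Together the 9 genes made up 0.0791 to 0.151% of all TPM in the 6 libraries from oocyte to 2-cell, 0.376 and 0.457% at 4-cell and 0.997 and 1.33% at 8-cell. At blastocyst the share was 1.10% in replicate 1 and 0.363% in replicate 2. The leading member changed from Hsp90aa1 in both oocyte libraries to Hspa8 in all 6 libraries from 4-cell on, with Hspa9 and Hspa5 leading in the 2-cell replicates.

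At transcript level, 16 of the 18 merged transcripts of the members were tested. From oocyte to 1-cell 0 were called (2 at an unadjusted p under 0.05) beside 2.00% of all 20250 transcripts, from 1-cell to 2-cell 4 rose (Hspa2, both forms of Hspa1a and the 7-exon form of Hspa8) beside 28.0%, and from 2-cell to 4-cell 2 rose and 1 fell beside 2.63%. In each of the last steps 0 were called (3 at an unadjusted p under 0.05), beside 3.13% of all transcripts between 4-cell and 8-cell and 2.11% between 8-cell and blastocyst. From oocyte to blastocyst 6 rose and 1 fell beside 43.0%. Of these, a second and shorter 11-exon form of Hsp90aa1 rose by 2.16 (SE 0.68, limma adjusted p = 0.0218) while it held at most 4.29% of the gene's TPM in any library. That call was lost after quantile normalization (adjusted p = 0.0772), without oocyte replicate 2 (0.126) or blastocyst replicate 1 (0.109) and in the fit of the 4 libraries (0.0714).

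Long reads covered the members unevenly. Hsp90aa1 had 42 long-read transcripts over the 7 stage pools, Hspa5 30, Hsp90ab1 22, Hspa9 17 and Hspa8 13, while Hspa1a had 6, Hspa2 4, Hsf1 3 and Hspa1b 1. Hspa1a and Hspa2 had theirs only in the sperm and 2-cell pools, the stages of their highest TPM. A transcript with the full intron chain of an annotated coding transcript was found in 6 stages for Hspa5 and Hspa9 and 5 for Hsp90ab1. It was found in 4 stages for Hsp90aa1, 3 for Hspa8 and 1 for Hsf1, and in no stage for Hspa1a and Hspa2. The longest annotated coding transcripts of Hspa1a and Hspa2 have 1 exon and so no intron to match. The 6 long-read transcripts of Hsp90aa1 in oocytes, the 11 at 1-cell and the 3 at 2-cell included none with such a chain. The median length of all long-read transcripts was 724 bases in the 1-cell pool and 826 bases in the oocyte pool, beside 1259 bases in sperm, and with 1 pool a stage these counts have no test.

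**Figure D4:**
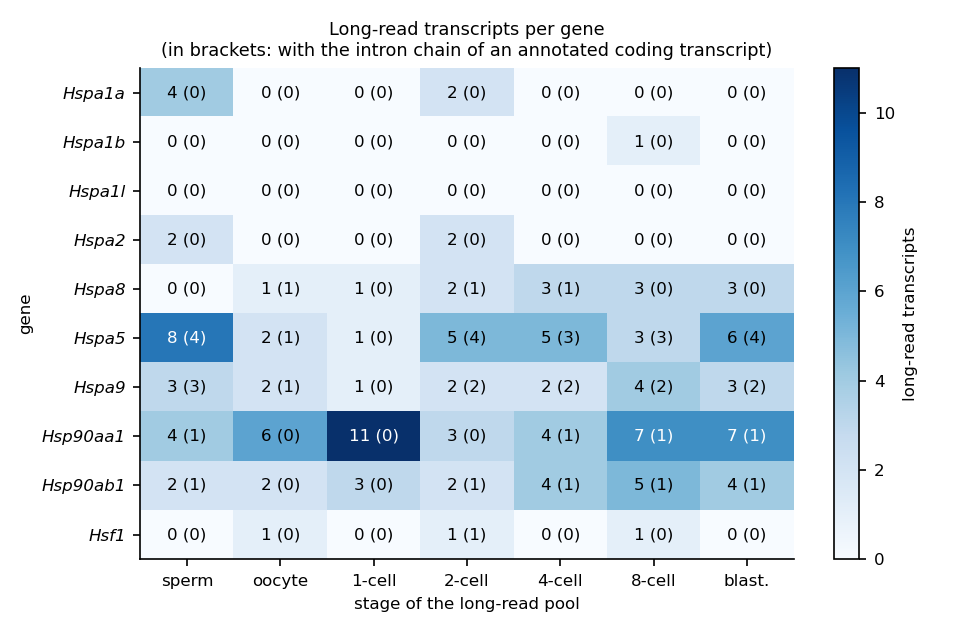
Number of long-read transcripts of each of the 10 genes (y axis) in the pool of each stage (x axis), with the number that carry the intron chain of an annotated coding transcript in brackets; darker cells hold more. Hspa1l is at 0 in all 7 pools, Hspa1a and Hspa2 appear in sperm and 2-cell only, and the 11 transcripts of Hsp90aa1 at 1-cell include 0 with an annotated chain.

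The partners of the chaperones were followed as 8 lists with 111 genes beside the members, of which 94 passed the filter on low values. From 1-cell to 2-cell 23 of the 94 rose and 1 fell, which is near the 25.3% of all genes that rose, with a median of 0.99 against 0.84 over all genes. From 2-cell to 4-cell, where Hspa8 rose, 0 of the 94 rose and 1 fell beside 1.06 and 1.58% of all genes, with a median of 0.14 against 0.00. From oocyte to blastocyst 40 rose and 14 fell beside 29.8 and 16.6% of all genes, with a median of 1.73 against 0.75.

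Of the 15 nucleotide exchange and partner factors of HSP70, 8 rose from 1-cell to 2-cell and 0 fell, beside 25.3% rises and 4.57% falls over all genes, with a median of 1.71 against 0.84. Bag1, which releases the substrate from HSP70, went from 1.87 and 7.09 TPM to 787 and 66.5 TPM, a rise of 5.58 (SE 1.09, limma adjusted p = 0.00237). Both 2-cell values were above both 1-cell values, with replicate 1 the higher, as for Hspa1a. Of the 25 J-domain partners tested, 6 rose in that step and Dnajb4 fell, by 4.21 (SE 0.83, adjusted p = 0.00256), from 148 and 206 TPM to 2.61 and 23.9 TPM. Dnajb9, a BiP partner in the endoplasmic reticulum, rose by 5.12 (SE 0.65, adjusted p = 0.000328), from 12.6 and 7.70 TPM to 464 and 306 TPM. From 8-cell to blastocyst it was the only listed gene that fell, by 3.22 (SE 0.65, adjusted p = 0.0239). That fall was not called without any 4-cell, 8-cell or blastocyst library, in the fit of the 4 libraries (limma adjusted p = 0.0683) or of all 14 (0.0977).

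Dnajc7, which links HSP70 and HSP90, was the only listed gene called from oocyte to 1-cell, from 5.72 and 5.43 TPM to 83.9 and 50.2 TPM (3.33, SE 0.66, limma adjusted p = 0.0111). The call was lost after quantile normalization (0.0634) and without oocyte replicate 2 or either 1-cell library. From 2-cell to 4-cell the only listed call was Dnaja4, which fell by 3.48 (SE 0.82, adjusted p = 0.0422), from 41.3 and 27.0 TPM to 2.77 and 1.52 TPM, with Hspa1a and Hspa2 in the same direction. That call was kept in 11 of 22 alternatives.

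Among the other lists, 2 of 19 HSP90 paralogs and co-chaperones rose from 1-cell to 2-cell, Unc45a and Fkbp4, beside 25.3% rises over all genes. Fkbp4 went from 4.94 and 9.45 TPM to 1146 and 58.1 TPM (5.05, SE 1.14, limma adjusted p = 0.00566), a call lost without 1-cell replicate 1. Without 2-cell replicate 1 the change of Fkbp4 was 2.91. Hspa4, an HSP110 that exchanges nucleotides on HSP70, went from 8.65 and 21.9 TPM to 1207 and 49.9 TPM (4.06, SE 1.16, adjusted p = 0.0191). The call of Hspa4 was lost without 2-cell replicate 1 (a change of 1.78), without either 1-cell library, after quantile normalization and with library weights (limma adjusted p = 0.0549). The small heat shock protein Hspb1 went from 23.2 and 46.6 TPM to 2869 and 298 TPM (4.77, SE 1.17, adjusted p = 0.00881), which was lost without 2-cell replicate 1 (3.14, adjusted p = 0.0626) or 1-cell replicate 1. Of the lens chaperone Cryab, 0.189 and 0 TPM at 4-cell became 19.8 and 27.7 TPM at 8-cell (4.49, SE 0.81, adjusted p = 0.00624), and Hspb2, its neighbour in the genome, rose from 1.73 and 1.73 TPM at 8-cell to 15.2 and 34.8 TPM at blastocyst (3.14, SE 0.50, adjusted p = 0.00803). The call of Cryab was lost without any 4-cell or 8-cell library. That of Hspb2 was lost without either 8-cell library, with a pseudocount of 0.1 (limma adjusted p = 0.0859) and in the fit of the 4 libraries (0.0945).

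Of 17 genes of endoplasmic reticulum folding and the unfolded protein response, 7 rose from oocyte to blastocyst, among them Xbp1, Calr and Pdia4, and 4 fell, the sensors Atf6, Eif2ak3 and Ern1 and the redox chaperone Creld2, beside 29.8% rises and 16.6% falls over all genes. Of 8 mitochondrial chaperones and proteases, 6 rose and 0 fell in that comparison, against the same shares, Hspd1, Lonp1 and Clpp among them, beside the uncalled Hspa9. From 1-cell to 2-cell Clpp, a matrix protease, rose by 5.06 (SE 0.72, limma adjusted p = 0.000524), and Manf, a secreted partner of BiP, by 2.94 (SE 0.80, adjusted p = 0.0153). The call of Manf was lost without 1-cell replicate 2 (a change of 2.44) and with library weights (limma adjusted p = 0.1035). In the list of heat shock factors, Hsf1 and Hsf5 fell from oocyte to blastocyst and 3 of the 8 genes could be tested.

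**Figure D5:**
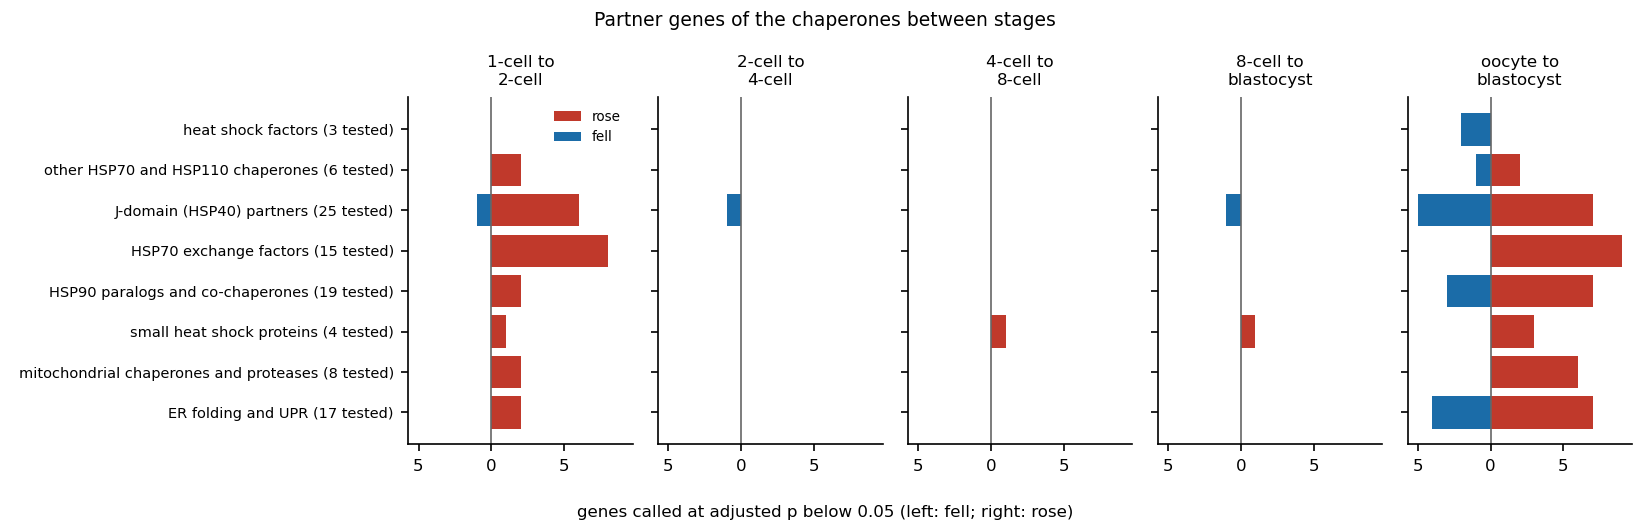
Number of genes of each partner list (y axis, with the number tested) that rose (right, red) or fell (left, blue) at a limma adjusted p below 0.05 between 2 stages (x axis, count of genes). Rises stand in most lists from 1-cell to 2-cell and from oocyte to blastocyst, while 2-cell to 4-cell holds a single fall, Dnaja4.

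Over the 14 libraries, the genes whose log2(TPM + 1) followed a member most closely were found among 14397 features and are given as a description, since libraries of a stage share their stage and many genes follow it. Hspa8 was followed by Cct5, a subunit of the TRiC chaperonin (r = 0.986), and Aimp1 (r = 0.980), and Hsp90ab1 by Rack1 (r = 0.974) and Rpl15 (r = 0.965), both parts of the ribosome. Hspa5 was followed by Sugp1 (r = 0.968) and Pdia3, a disulfide isomerase (r = 0.939). Hspa2 was followed by the spermatid kinase gene Tssk6 (r = 0.958) and by Hspa1a (r = 0.956), its partner in the sperm and 2-cell peaks. Among the members themselves, Hspa8 and Hsp90ab1 had r = 0.869 and Hspa8 and Hsf1 r = -0.806 over the same 14 libraries.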

How the data were processed

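The merged and single-stage long-read transcripts (exon coordinates on mm10) and their TPM values were deposited by the authors, who aligned long reads with GMAP, merged the stages with Cuffmerge and ran salmon on each short-read library against the merged transcripts and, separately, those of its own stage. Members, lists and tests were chosen with earlier results of these data known. Of the genes outside the members, the text names, for each list and step, the called gene with the largest rise and the one with the largest fall without overlap of libraries, called genes without values that were added after their values were seen, and, for some members, the 2 genes most correlated with them. Samples were grouped by stage and replicate of the title, which was followed for the 8-cell libraries, where other labels differ. Genes that reached a TPM of 1 in 2 or more libraries were tested with limma 3.58.1 (R 4.3.3; lmFit, contrasts.fit, eBayes with trend) on log2(TPM + 1), stage as the only term. The fit was run on simulated data with the same spread in every stage of a gene. That run cannot tell how the fit handles the larger spread of the 2-cell libraries. Forms with a mean of at least 10 TPM in a stage, or over 50% of their gene, were described, those of Hspa9 and Hsf1 and the main one of Hsp90aa1 only through their gene. Word sharing and promoter matches were counted with Python 3.11.15. Alternatives were another pseudocount, filters, quantile normalization, other sets of libraries, weights, a replicate block, other gene assignments and each library left out.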

Additional observations from a re-analysis of the deposited data

How the results depend on the processing

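With 2 libraries a stage and a pooled spread, the step from 2-cell to 4-cell depended most on the processing. Its 3 called members became 1 (Hspa8) with a pseudocount of 0.1, no filter on low values, a fit of all 14 libraries or the replicate block, and 0 in the fit of the 4 libraries alone or with library weights. From 4-cell to 8-cell, 0 called members became 4 (Hsp90aa1, Hsp90ab1, Hspa8 and Hspa5) in the fit of the 4 libraries and with weights, where these stages had the smallest spread between replicates. Of the transcripts of members, the 3 called from 2-cell to 4-cell became 5 with quantile normalization, 0 with the fit of the 4 libraries or weights and 1 with the replicate block. From 4-cell to 8-cell 0 became 2 with quantile normalization, 7 with the fit of the 4 libraries and 8 with weights, and from 8-cell to blastocyst 0 became 1 without a filter. Leaving out 1 library gave 0 members called at the oocyte to 1-cell step, 2 to 3 at the 1-cell to 2-cell step, 0 to 4 at the 2-cell to 4-cell step, 0 at the 4-cell to 8-cell step and 0 to 1 at the last, 2 to 4 between oocyte and blastocyst and 4 to 6 between oocyte and sperm. For their transcripts the ranges were 0, 4 to 6, 0 to 7, 0 to 1, 0 to 1 and 3 to 8. The share of the 7-exon form of Hspa8 in single libraries was 35.5% (4-cell replicate 1), 45.2% (8-cell replicate 1) and 44.2% (blastocyst replicate 1), against the mean of 40.0%. No change of a gene or form that was called, as reported or under an alternative, had the other sign in the other fit. Under some alternative 47 of the 160 changes crossed 0 while called in neither fit (75 of 3358 values, 10 of them not from leaving out a library), and the median of all genes from 1-cell to 2-cell turned negative with quantile normalization.

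Over all genes tested, whose number changed with some alternatives, calls at the 2-cell to 4-cell step ran from 0 to 1765, against 356 of 13465 as reported. At the next step they ran from 0 to 4599, against 505. Mean TPM moved by more than 1 SD in 13 of 168 cases, all with the transcripts of the library's own stage. Replicate numbers did not pair the libraries: the differences between replicates correlated across pairs of stages from -0.494 to 0.442, over 0.1 in 4 of 15. The replicate block changed no other count of called members than those given. Since TPM keeps no depth and the read totals listed by the study were not used, no limit of detection is given for values near 0.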
